A study of Homo sapiens with 6 samples.

Results

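Histone lysine demethylases are the enzymes that take methyl groups off lysines of histone tails. The genes described here are KDM1A, KDM2B, KDM3A, KDM3B, KDM4A, KDM4B, KDM4C, KDM5B, KDM6B and KDM7A, measured by every probe set whose platform annotation gives exactly one of these symbols. That rule found 32 probe sets of the 54675 on the array, standing for all 10 genes, of 19775 genes named by a probe set of their own. The cells were RL, an established human B lymphoid line that carries the t(14,18) translocation of follicular lymphoma, and no sample was treated. MALC, multicellular aggregates of lymphoma cells, were collected after 10 days of culture, and suspension cells during exponential growth, with 3 samples each, numbered 1 to 3, and 1 Affymetrix U133 Plus array per sample. All samples come from 1 cell line, the labels define MALC by days and suspension cells by growth phase, so that form and time in culture cannot be told apart, and no label states that the samples of a group were separate cultures. The p-values therefore describe the scatter among these arrays, which could be technical.

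KDM1A is a flavin-dependent amine oxidase that works on mono- and dimethylated lysines inside corepressor complexes. The other members carry a JmjC domain, an iron-dependent fold that uses molecular oxygen and 2-oxoglutarate to hydroxylate the methyl group, which then leaves as formaldehyde. The KDM3 and KDM4 enzymes remove repressive methylation of lysine 9 of histone H3, KDM5B removes the trimethyl mark of active promoters on lysine 4, and KDM6B and KDM7A act on lysine 27, the residue methylated by the Polycomb enzymes EZH1 and EZH2. KDM2B recruits a variant Polycomb complex to CpG islands. In B cells of the germinal centre KDM1A is known as a partner of the repressor BCL6, and KDM3A, KDM4B and KDM4C are known targets of the hypoxia-inducible factors in other cells.

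The deposited values were linear signals, one per probe set and array, with array medians of 80.75 to 81.67 and 75th percentiles of 319.9 to 328.6 in MALC against 302.7 to 311.1 for suspension. The number of arrays limits the precision. Within each group samples 2 and 3 were nearly alike (Pearson correlation of log2 signals 0.9984 in MALC and 0.9985 in suspension), and sample 1 stood apart from them (0.9949 to 0.9955). For the ACTB control probe sets, 3′ signal over 5′ signal ranged from 1.22 to 1.33 among MALC arrays and from 1.31 to 1.54 among suspension arrays, and its part in the results was not tested. All 8 B cell markers on the array passed the filter on dim probe sets, with summed signals of 45250 to 48710 in MALC and 44150 to 46890 in suspension. Of the 8, MME, the CD10 antigen, was higher (log2 change 0.52, limma adjusted p = 0.00134) and 7 did not pass. Sums were 393.8 to 418 and 432.1 to 438.9 for 7 T and NK cell markers, 285.5 to 310.6 and 284.1 to 313 for 5 monocyte and macrophage markers, 656 to 720.7 and 773.2 to 1174 for 7 stromal and endothelial markers, and 277 to 314.7 and 287.8 to 293.6 for 5 epithelial markers. Of these markers of other cell types 13 were bright enough to test, and 0 passed in limma (1 at an unadjusted p under 0.05). That marker was the stromal COL1A2, with 46.3, 45.97 and 54.17 in MALC and 54.08, 346.6 and 126.9 in suspension. Its log2 change was −1.25 (limma adjusted p = 0.0817), and its signals in suspension 2 and 3 were far apart.

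The comparison asked how demethylase transcripts in aggregates differed from those in suspension. Probe sets whose mean signal reached 53.4 over the 6 arrays were tested, which kept 27 of the 32 member probe sets and left 5 without a test. Of the 27, 20 were higher in MALC and 1 was lower, whereas of all 32768 probe sets tested 41.7% were called, 21.2% as higher and 20.4% as lower (limma on log2(signal + 16), Benjamini-Hochberg adjusted p at 0.05). The groups did not overlap in 23 of the 27, with MALC above in 21 and below in 2, against 25.9% above and 30.3% below over all probe sets tested. The median log2 change was 0.64 over the 27 and −0.04 over all probe sets tested. Probe sets of 1 gene are repeated readings of that gene, and KDM4B and KDM6B supplied 6 and 5 of the 20 called higher. With each gene counted once, through its brightest probe set, the median was 0.54 over members and −0.06 over all genes. By the brightest probe set of each gene, KDM3A, KDM3B, KDM4B, KDM4C, KDM5B and KDM6B were higher, KDM1A was lower, and KDM2B, KDM4A and KDM7A did not pass; over all genes 18.6% were higher and 22.7% lower. All 27 had group means above 53.4 in both groups, the lowest being KDM7A 225142_at at 59.18 in MALC. When samples 2 and 3 of each group were averaged and counted as 1 unit, 15 member probe sets were higher and 0 lower (limma, also 0 lower at an unadjusted p under 0.05). Of all 32768 probe sets 5128 were then called (15.6%), 3101 as higher and 2027 as lower. With arrays centred on their 75th percentile the split was 18 higher and 2 lower among members. Of all 32768 probe sets 5738 were then higher and 9819 lower, so that 36.9% rather than 50.9% of all calls were higher.

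**Figure D1:**
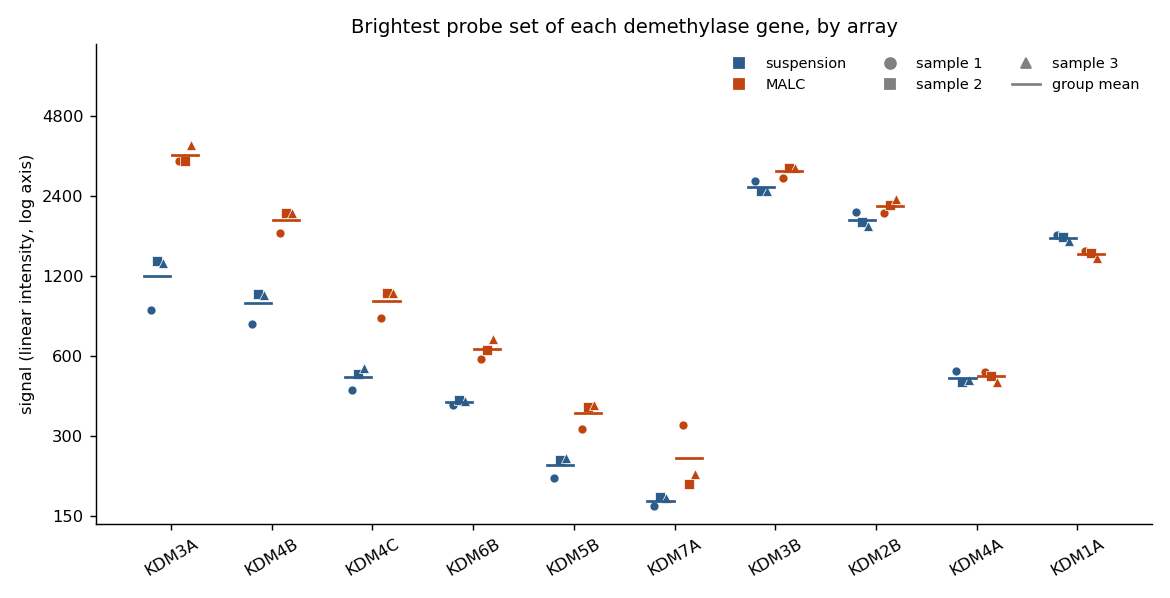
Signal of the brightest probe set of each demethylase gene in each of the 6 arrays (vertical log axis, linear intensity); colours give the culture form, symbols the sample number and bars the mean of 3 arrays, with genes ordered by log2 change. KDM3A lies between 892.1 and 1368 in suspension and between 3256 and 3754 in MALC, while the arrays of KDM4A overlap.

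KDM3A, a demethylase of mono- and dimethylated lysine 9, showed the largest difference. Its probe set 212689_s_at had signals of 3256, 3258 and 3754 in MALC 1, 2 and 3 and of 892.1, 1368 and 1340 in suspension 1, 2 and 3. Every MALC array was above every suspension array, and suspension 1 was the lowest of all. The rise was 2.87-fold (log2 change 1.52, SE 0.161, limma adjusted p = 0.000539; means 3423 ± 287 and 1200 ± 267, SD, n = 3 each), and 129 of 13765 genes, 0.937%, had a larger log2 change by their brightest probe set. A second, dim KDM3A probe set, 242758_x_at, was not tested; it read 31.24 to 35.98 in MALC and 16.39 to 23.72 in suspension, all below 53.4. The paralog KDM3B moved far less. Its probe set 201643_x_at read 2804, 3080 and 3062 in MALC and 2737, 2522 and 2523 in suspension, and 210878_s_at read 1646, 1781 and 1878 against 1528, 1496 and 1514. The groups did not overlap in either probe set, but MALC 1 lay close to suspension 1. The log2 changes were 0.20 and 0.22 (limma adjusted p = 0.0427 and 0.0366), and neither call survived leaving out MALC 2, MALC 3, suspension 2 or suspension 3 (adjusted p 0.105 to 0.153), nor did that of 210878_s_at survive leaving out suspension 1 (0.0516). They were lost as well with 75th percentile centring (0.165 and 0.129) and with samples 2 and 3 averaged (0.327 and 0.273), and that of 201643_x_at with a block for the sample number (0.0582), without trend (0.0513) and without the filter (0.0591). Over all alternatives the adjusted p ranged from 3.36e-05 to 0.327 and from 0.000208 to 0.273.

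The genes outside the lists used here whose profile over the 6 arrays lay nearest to that of KDM3A were TMEM225B, YPEL5 and IFIH1, with root mean square differences of 0.0897, 0.0931 and 0.107 between log2 values centred on each gene's mean. YPEL5 read 2450, 3034 and 2980 in MALC and 751.5, 1139 and 1093 in suspension. As for KDM3A, its lowest array was suspension 1.

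The genes of the KDM4 enzymes, which remove tri- and dimethylation of lysine 9, were not all called. KDM4B was read by 8 probe sets, of which 7 were tested and 6 were higher. The brightest, 212496_s_at, had signals of 1744, 2073 and 2069 in MALC and 792.8, 1027 and 1023 in suspension. The next, 212492_s_at, read 1785, 2031 and 1896 against 878.9, 913.8 and 957. In both the groups lay far apart, and MALC 1 was the lowest MALC array. Each rose 2.06-fold (log2 change 1.04 for both, SE 0.122 and 0.0752, limma adjusted p = 0.000751 and 0.00017). KDM4C was read by 4 probe sets, and the 3 tested were all higher. Its brightest, 209984_at, had 831.4, 1040 and 1040 in MALC against 447.8, 512.1 and 541.5 in suspension, a 1.91-fold rise (log2 change 0.93, SE 0.115, adjusted p = 0.000909). The groups were separate, and sample 1 was the lowest of each. The probe sets 214861_at and 1556493_a_at rose 2.73- and 2.09-fold, from 153.3 ± 15.8 to 447.2 ± 57.9 and from 128.8 ± 12.1 to 286.7 ± 26.9 (SD, n = 3 each).

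KDM4A, the paralog of KDM4B and KDM4C with the same residues as substrates, showed no call. Its probe set 203204_s_at read 522.9, 505.5 and 480.4 in MALC and 525.5, 477.7 and 488.5 in suspension, and the groups were interleaved. The log2 change was 0.02 with a 95% confidence interval of −0.158 to 0.19 (limma adjusted p = 0.877), which lies below the intervals of KDM4B 212496_s_at (0.76 to 1.33) and KDM4C 209984_at (0.663 to 1.2); the difference between genes was not tested. The dimmer KDM4A probe set 203205_at read 326, 258.8 and 251.9 in MALC and 293.2, 316.1 and 329.6 in suspension. MALC 1 alone lay among the suspension arrays. Its log2 change of −0.17 did not pass (adjusted p = 0.251), but was −0.28 and passed without MALC 1 (0.024) and with array weights (0.00517), and was −0.32 without both arrays numbered 1 (0.00138; range over alternatives 0.00138 to 0.694).

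**Figure D2:**
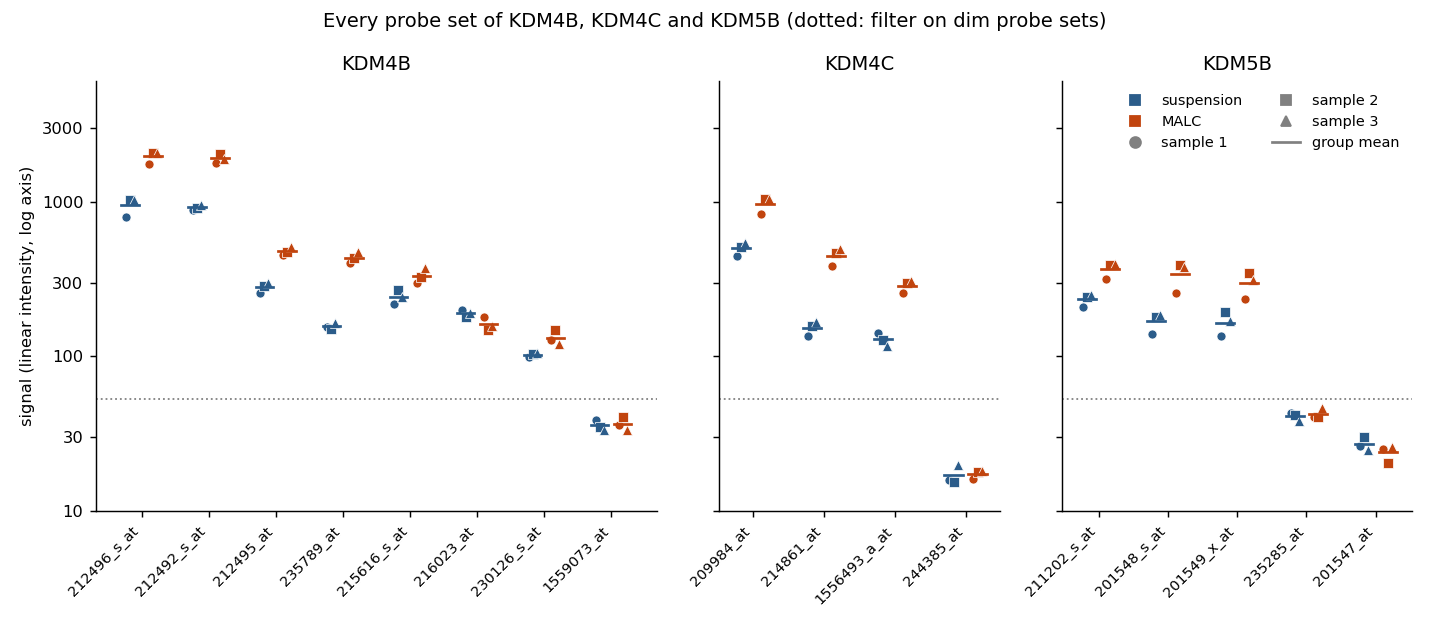
Signals of all 17 probe sets of KDM4B, KDM4C and KDM5B in each array (vertical log axis, linear intensity; colours give the culture form, symbols the sample number, bars the mean of 3 arrays, and the dotted line the filter at 53.4). The bright probe sets are separated by culture form, KDM4B 216023_at has MALC below suspension, and the 4 probe sets under the line overlap.

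Probe sets of the same gene did not all give the same size of change. The log2 change of each probe set was compared with that of the other tested probe sets of its gene (limma diffSplice, Benjamini-Hochberg adjusted p at 0.05), which called 22% of the 19038 probe sets with such a partner and 7 of 24 member probe sets, 6 of KDM4B and 1 of KDM4C. KDM4B 235789_at exceeded its partners by 0.82 on the log2 scale (adjusted p = 6.97e-07), with 399.9, 431.2 and 472 in MALC against 154.4, 151.5 and 165.2 in suspension, a 2.60-fold rise. KDM4B 216023_at lay below its partners by a log2 difference of −1.04 (adjusted p = 8.12e-09). It read 178.9, 148.3 and 157.8 in MALC and 199.7, 179 and 192.1 in suspension, so the groups just failed to meet. Its own log2 change of −0.22 did not pass (limma adjusted p = 0.0719), but did so when the sample number entered as a block (0.0404), without MALC 1 (0.0203), without both arrays numbered 1 (0.0139), after quantile normalization (0.036), with 75th percentile centring (0.031) and with array weights (0.00483; range over alternatives 0.00483 to 0.254). KDM4B 215616_s_at and 230126_s_at rose by only 0.43 and 0.31 (limma adjusted p = 0.0147 and 0.0172), below their partners (diffSplice adjusted p = 0.0413 and 0.00292). Both calls were lost with samples 2 and 3 averaged (limma adjusted p = 0.0858 and 0.0559), and that of 215616_s_at without MALC 3 (0.0525); over all alternatives the adjusted p was 0.000476 to 0.0858 and 0.00137 to 0.0559. KDM4C 214861_at exceeded its partners by 0.45 (diffSplice adjusted p = 0.0297). The untested dim probe sets KDM4B 1559073_at and KDM4C 244385_at read 33.73 to 40.49 and 15.45 to 20.01 over the 6 arrays, with overlapping groups. The transcript regions that these probe sets match were not analysed here.

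The demethylase of the active promoter mark also rose. KDM5B, which removes trimethylation of lysine 4, was read by 5 probe sets, of which the 3 tested were higher. Its brightest, 211202_s_at, had 317.4, 387 and 393.5 in MALC and 208.3, 243.9 and 248.6 in suspension. Sample 1 was the lowest of each group and the groups did not overlap. The rise was 1.53-fold (log2 change 0.61, SE 0.108, limma adjusted p = 0.00353). The probe set 201548_s_at read 258.3, 389.5 and 375.9 against 138.8, 181.1 and 186.3, a 1.92-fold rise (adjusted p = 0.00387), and 201549_x_at read 236.3, 346.4 and 310.7 against 134.6, 192.9 and 169.4, a 1.72-fold rise (adjusted p = 0.00682, but 0.0556 with samples 2 and 3 averaged; range over alternatives 2.8e-06 to 0.0556). No KDM5B probe set passed the diffSplice comparison with its partners (adjusted p 0.444 to 0.985). The dim 235285_at and 201547_at, at 38.08 to 46.27 and 20.56 to 30 over all arrays, were not tested, and their groups overlapped.

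KDM6B, which removes di- and trimethylation of lysine 27 and so acts against Polycomb, was higher in all of its 5 probe sets, each of which was tested. The brightest, 41387_r_at, had 586.1, 631.6 and 694.3 in MALC and 392.5, 409.9 and 406.2 in suspension. Its suspension arrays were close together, and every MALC array was above them. The rise was 1.56-fold (log2 change 0.64, SE 0.0824, limma adjusted p = 0.00107). The others rose 1.44-fold (1556066_at) to 1.78-fold (1556067_a_at), and none passed the diffSplice comparison (adjusted p 0.131 to 0.687). The dimmest, 213146_at, read 211, 200.4 and 257.2 in MALC and 125.1, 124.7 and 113.9 in suspension (1.73-fold, limma adjusted p = 0.000909). All 5 KDM6B calls held under each of the alternative settings run, with log2 changes of 0.45 to 0.91.

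KDM7A, which acts on lysine 27 and on dimethylated lysine 9, did not pass. Its brighter probe set 221778_at read 330.4, 197.6 and 216.1 in MALC and 162.7, 176.2 and 174.9 in suspension. The groups did not overlap, but MALC 1 stood far above the other two MALC arrays. The log2 change was 0.46 (95% confidence interval 0.0706 to 0.856, limma adjusted p = 0.0602). It passed without MALC 1, where it was 0.25 (adjusted p = 0.034), without MALC 2 (0.60, adjusted p = 0.0392) and without both arrays numbered 1 (0.22, adjusted p = 0.0281), with a range of 0.0281 to 0.135 over the alternatives. The dim KDM7A probe set 225142_at read 64.16, 56.52 and 56.84 against 58.56, 60.48 and 73.77, overlapped between groups, and had a log2 change of −0.09 (adjusted p = 0.416). The diffSplice test between the pair gave an adjusted p of 0.0763.

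KDM2B, the CpG island reader, was among the bright members and changed little. Its single probe set, 226215_s_at, had 2074, 2229 and 2337 in MALC and 2101, 1923 and 1859 in suspension. Suspension 1 was above MALC 1, so the groups overlapped. The log2 change of 0.17 did not pass (95% confidence interval −0.00145 to 0.349, limma adjusted p = 0.101), but passed without MALC 1 (0.0378), without suspension 1 (0.0461), without both arrays numbered 1 (0.00019) and with array weights (0.00234), with a range of 0.00019 to 0.468 over the alternatives. KDM1A, the flavin-dependent enzyme, was the one member called lower. Its single probe set, 212348_s_at, had 1497, 1464 and 1399 in MALC and 1711, 1692 and 1623 in suspension. All MALC arrays were below all suspension arrays, by a small margin. It fell to 0.869 of its suspension level (log2 change −0.20, SE 0.0634, limma adjusted p = 0.0355; means 1453 ± 49.8 and 1675 ± 46.2, SD, n = 3 each), and the call was lost without any single array except MALC 1 (adjusted p 0.0618 to 0.12) and with samples 2 and 3 averaged (0.236), with a range of 0.00242 to 0.236 over the alternatives. In RNA of whole cultures, fewer cells that express a gene and less of its RNA per cell cannot be told apart.

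**Figure D3:**
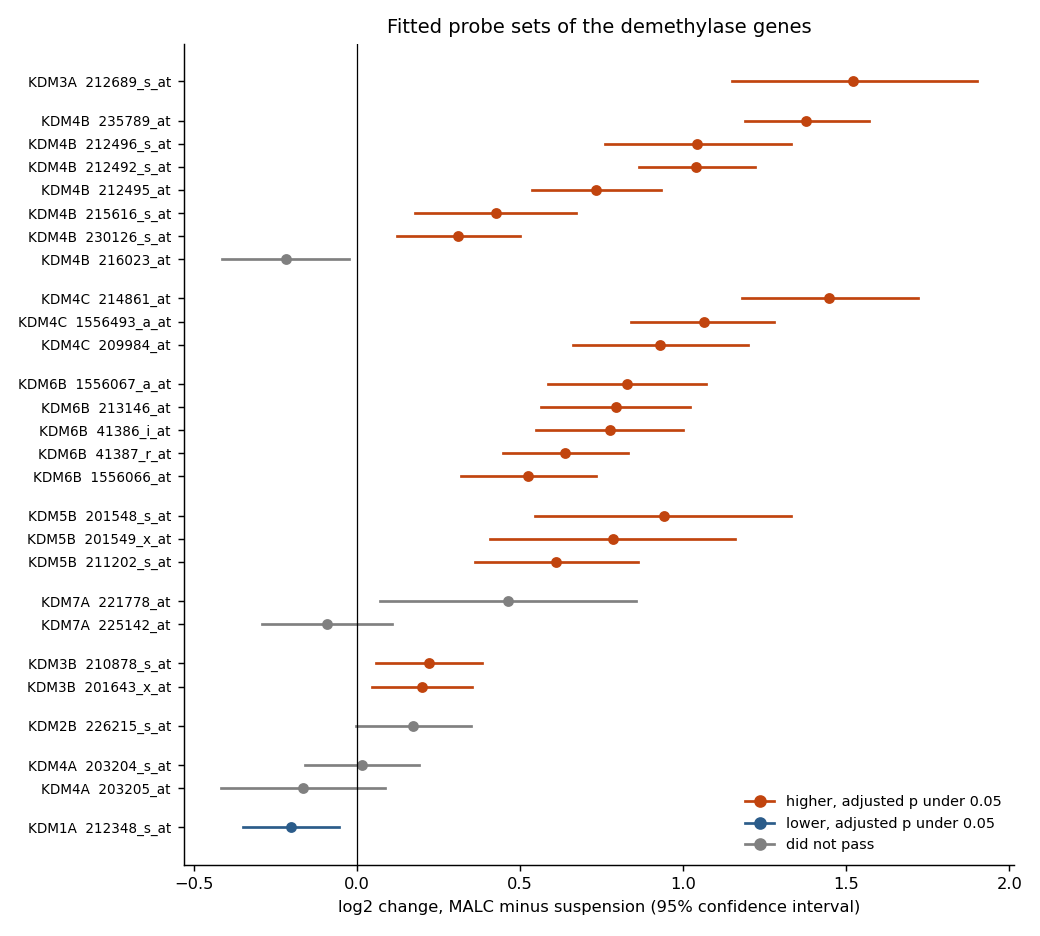
Log2 change, MALC minus suspension, of the 27 tested demethylase probe sets with 95% confidence intervals from limma (horizontal axis), grouped by gene; colour gives the call at an adjusted p of 0.05. KDM3A lies highest at 1.52, the KDM4B probe sets spread from −0.22 to 1.38, and the 5 KDM6B probe sets lie between 0.53 and 0.83.

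The promoters of the members that rose most, KDM3A, KDM4B and KDM4C, are shown with that of KDM1A, the member that fell, because the first 3 are known targets of hypoxia-inducible factors, whose core binding letters were searched. RefSeq (GRCh38.p14) held promoters for all 10 members in 15 windows; the 250 bases before each start were searched for ACGTG and GCGTG on both strands. ACGTG overlaps itself on the opposite strand in CACGTG, so such a site counts as a match on each strand. The windows are written on the gene's strand, 5′ to 3′, with matches in capitals. For KDM3A, KDM4B, KDM4C and KDM1A they are chr2:86441121-86441370, chr19:4968863-4969112, chr9:6757723-6757972 and chr1:23019218-23019467, all on the plus strand.
KDM3A: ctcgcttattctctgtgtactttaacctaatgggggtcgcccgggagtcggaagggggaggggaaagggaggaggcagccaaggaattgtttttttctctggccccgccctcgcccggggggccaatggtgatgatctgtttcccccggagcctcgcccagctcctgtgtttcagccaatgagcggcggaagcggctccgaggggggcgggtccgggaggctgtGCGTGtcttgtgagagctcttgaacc
KDM4B: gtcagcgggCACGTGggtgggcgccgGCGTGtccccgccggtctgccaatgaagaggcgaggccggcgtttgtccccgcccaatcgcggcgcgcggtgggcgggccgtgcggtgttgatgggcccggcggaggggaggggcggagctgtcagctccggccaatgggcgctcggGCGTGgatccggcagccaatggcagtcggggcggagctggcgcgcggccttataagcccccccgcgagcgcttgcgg
KDM4C: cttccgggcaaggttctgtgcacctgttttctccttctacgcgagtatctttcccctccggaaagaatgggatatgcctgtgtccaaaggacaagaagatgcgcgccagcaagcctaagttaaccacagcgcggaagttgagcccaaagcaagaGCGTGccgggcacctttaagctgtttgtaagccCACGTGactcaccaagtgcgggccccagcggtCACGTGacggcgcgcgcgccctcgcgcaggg
KDM1A: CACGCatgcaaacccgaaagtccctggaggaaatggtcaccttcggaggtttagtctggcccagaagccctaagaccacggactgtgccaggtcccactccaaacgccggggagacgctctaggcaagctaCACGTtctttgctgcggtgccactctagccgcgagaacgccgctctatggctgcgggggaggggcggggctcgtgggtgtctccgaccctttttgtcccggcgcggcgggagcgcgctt

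In KDM3A the single match, GCGTG, began 26 bases before the start. KDM4B held CACGTG with ACGTG at 240 bases, and GCGTG at 224 and 77 bases. KDM4C held CACGTG at both 63 and 31 bases and GCGTG at 96 bases before the start. KDM1A, which fell, held ACGTG and GCGTG on the opposite strand, at 119 and 250 bases. Either motif was present in 12 of the 15 member windows and in 43.2% of 35116 windows of all genes. ACGTG was present in 4 member windows and in 18.5% of all. The member windows are not independent, since KDM2B supplies 4 of them and the 2 of KDM3A overlap and share the same GCGTG site. KDM3B had no match in its window. Members that did not pass, KDM2B, KDM4A and KDM7A, also held matches. Either motif was present in some window of 9 of the 10 members, which leaves too few without it to compare. Whether the letters go with the change was not tested. A match is a description of the sequence only, and binding was not measured.

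A list of further demethylases and JmjC relatives outside the members held genes that moved in both directions. Of 19 tested genes on this list, 5 were higher (KDM2A, KDM6A, JARID2, JMJD1C and HSPBAP1) and 7 lower (RIOX1, RIOX2, JMJD4, PHF2, TYW5, JMJD8 and KDM8). Over all genes 18.6% were higher and 22.7% lower. The median log2 change was 0.03 against −0.06 over all genes. KDM1B, KDM4D, KDM5A, KDM5C and PHF8 did not pass. KDM2A, the paralog of KDM2B, rose 1.88-fold by its brightest probe set, from 1445 ± 34.9 to 2751 ± 347 (SD, n = 3 each, limma adjusted p = 0.000512). That probe set exceeded its partners by 0.84 on the log2 scale (diffSplice adjusted p = 3.75e-05), so these rose far less on average. The TYW5 and KDM8 probe sets lay below their partners by log2 differences of −0.53 and −0.33 (diffSplice adjusted p = 0.00234 and 0.0268). Their own log2 changes were smaller, −0.43 and −0.31, so the other tested probe sets of both genes did not fall on average. The ribosome-associated oxygenase genes RIOX1 and RIOX2 were 2.14- and 1.78-fold lower (adjusted p = 0.000407 and 0.00208). KDM6A, the X-linked paralog of KDM6B, had a log2 change of 0.47, and KDM5A, the paralog of KDM5B, one of 0.06 that did not pass (adjusted p = 0.436); these 2 and the other genes of the list beyond KDM2A, RIOX1 and RIOX2 were named after their values were seen. Averaging samples 2 and 3 left 2 genes of this list higher and 3 lower, and without MALC 2 or MALC 3 the higher genes numbered 3. Of all probe sets tested, 15.6% were called with this averaging, 28.6% without MALC 2 and 29.8% without MALC 3. The main fit called 41.7%.

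The enzymes that write the marks were likewise split. Of 27 histone lysine methyltransferase genes 8 were higher and 9 lower (median log2 change 0.0027). Over all genes 18.6% were higher and 22.7% lower, which also stands beside the Polycomb and KDM1A partner counts below. EZH1, a catalytic subunit of Polycomb complex PRC2, rose 2.23-fold, from 720.1 ± 3.72 to 1633 ± 175 (limma adjusted p = 0.000213), whereas EZH2, its proliferation-linked paralog named here after its values were seen, had a log2 change of −0.37 (adjusted p = 0.0281). KMT2E, a relative of the lysine 4 methyltransferases, rose 1.79-fold, and DOT1L, which methylates lysine 79, was 1.82-fold lower. The EZH1 and DOT1L probe sets differed from their partners by log2 differences of 0.44 and −0.77 (diffSplice adjusted p = 0.00147 and 0.0212). The other tested probe sets of DOT1L thus fell far less on average. KMT5B and SETD7, named after their values were seen, were counted as lower and higher at log2 changes of −0.35 and 0.38. Their probe sets differed from their partners by more, −1.48 and 1.07 (diffSplice adjusted p = 0.00016 and 2.18e-05). These partners thus moved the opposite way on average. The NSD2 probe set (log2 change −0.38), likewise named afterwards, lay below its partners by −0.36 (diffSplice adjusted p = 0.0243). Among 20 Polycomb genes 4 were higher (CBX7, PHC1, BCOR and RYBP, all but the first chosen after their values were seen) and 7 lower. CBX7, a reader of the lysine 27 mark, rose 2.05-fold, while PHF19 and MTF2, accessory subunits of PRC2, were 1.68- and 1.55-fold lower. PCGF5 and CBX2, counted as lower and named after their values were seen, had log2 changes of −0.36 and −0.49. Their probe sets lay below their partners by −0.67 and −0.41 (diffSplice adjusted p = 0.000537 and 0.0439). The other tested probe sets of PCGF5 thus did not fall on average, and those of CBX2 fell far less. Of 19 partners of KDM1A in corepressor complexes 4 were higher and 3 lower. ZMYM2 and PHF21A rose 1.76- and 1.69-fold. MTA2, a subunit of the NuRD complex, was 2.24-fold lower at the dim signals of 58.47 ± 17.8 and 148.1 ± 14.3. RCOR3, GSE1, CHD3 and HDAC2, named after their values were seen, had log2 changes of 0.74, 0.38, −0.48 and −0.32. The RCOR3 and GSE1 probe sets exceeded the other tested probe sets of their genes by 0.998 and 0.335 (diffSplice adjusted p = 0.000243 and 0.027). For RCOR3 that is more than its own change, so its other tested probe sets did not rise on average. With samples 2 and 3 averaged the methyltransferases numbered 3 higher and 3 lower, the Polycomb genes 1 and 2, and the lower KDM1A partners 1; with 75th percentile centring the lower KDM1A partners numbered 6. With array weights 7 KDM1A partners were lower and 7 Polycomb genes higher. Without both arrays numbered 1 the KDM1A partners numbered 7 higher and 7 lower and the Polycomb genes 7 higher. Of all probe sets tested, 41.7% were called in the main fit, 60.1% with array weights and 55.4% without both arrays numbered 1. The share was 15.6% with samples 2 and 3 averaged and 47.5% with 75th percentile centring. It was 28.6% to 32.4% without MALC 2, MALC 3, suspension 2 or suspension 3. Without MALC 2 the methyltransferase counts were 5 and 5 and the Polycomb counts 2 and 3; the lower methyltransferases also numbered 5 without MALC 3, suspension 2 or suspension 3, and the lower Polycomb genes 3 without MALC 3 or suspension 2.

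Of 20 tested genes on a list of other enzymes that use oxygen and 2-oxoglutarate, 8 were higher and 3 lower, with a median log2 change of 0.14. The 8 include P4HB, the disulfide isomerase subunit of collagen prolyl hydroxylase, which is not itself such an oxygenase. Beside this list and that of 2-oxoglutarate metabolism below stand 18.6% higher and 22.7% lower over all genes. EGLN1, the prolyl hydroxylase that marks hypoxia-inducible factors for destruction, rose 2.49-fold, from 1003 ± 28.3 to 2523 ± 128 (SD, n = 3 each, limma adjusted p = 6.03e-05). The EGLN1 probe set exceeded its partners by 0.25 on the log2 scale (diffSplice adjusted p = 0.0316). P4HA1, the catalytic subunit of a collagen prolyl hydroxylase, rose 2.77-fold. PHYH, a peroxisomal hydroxylase, read 150.4, 235.9 and 206.7 in MALC and 43.06, 51.95 and 60.15 in suspension; its suspension mean of 51.72 lies below the filter at 53.4, so it was tested only through its MALC signals. The size of the PHYH change moved with the constant added before the logarithm (log2 change 1.17 with 64, 1.9 with 1), and it was not tested with the filter at the 60th percentile. The lower ones, named after their values were seen, were OGFOD1, ASPH and ALKBH3, with log2 changes of −0.95, −0.35 and −0.34. Of 17 genes that make or use 2-oxoglutarate and its competitors succinate and fumarate, 6 were lower and 1, SUCLG2, named after its value was seen, was higher at a log2 change of 0.32 (adjusted p = 0.0485). IDH3A, a subunit of the mitochondrial isocitrate dehydrogenase that makes 2-oxoglutarate, was 1.69-fold lower, OGDH, which consumes it, 1.37-fold and the transaminase gene GOT1 1.35-fold. The calls of IDH3A, OGDH and GOT1 were lost with samples 2 and 3 averaged (adjusted p = 0.0555, 0.0623 and 0.148, the highest over their alternatives, the lowest being 2.32e-07, 5.04e-05 and 2.3e-06), and that of GOT1 without MALC 2, MALC 3, suspension 1 or suspension 3 (up to 0.0924). With samples 2 and 3 averaged, 0 genes of this list were higher and 0 lower (limma; 0 and 3 at an unadjusted p under 0.05). The lower genes numbered 10 without MALC 1 or with array weights, 11 without both arrays numbered 1, and 3 without MALC 2 or MALC 3. Of all probe sets tested, 45.9% were called without MALC 1, 60.1% with array weights and 55.4% without both arrays numbered 1. The share was 28.6% without MALC 2, 29.8% without MALC 3, 39.3% without suspension 1 and 32% without suspension 3. With samples 2 and 3 averaged it was 15.6%, against 41.7% in the main fit. The SUCLG2 call was also lost without MALC 2 or any suspension array, without the filter, and with centring on the median or the 75th percentile. Among the other oxygenases 4 were higher and 1 lower with samples 2 and 3 averaged, 5 were higher without MALC 3, suspension 1 or suspension 3, and 1 was lower without MALC 2 or MALC 3.

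**Figure D4:**
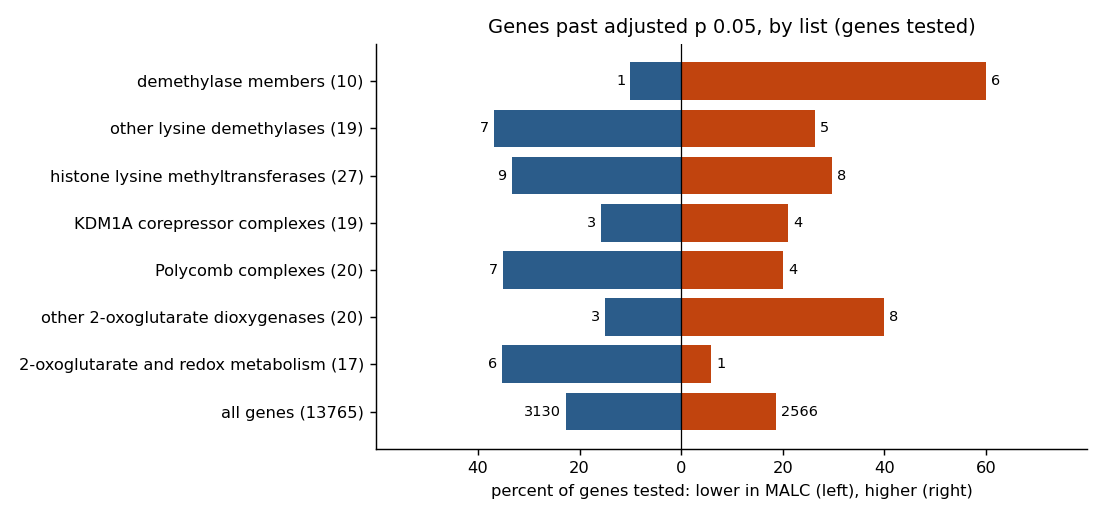
Share of tested genes past an adjusted p of 0.05 by their brightest probe set (horizontal axis, percent; lower in MALC to the left, higher to the right; numbers beside bars are genes) for the demethylase members, each list and all 13765 genes. The members have 6 of 10 genes higher and 1 lower, against 2566 higher and 3130 lower among all genes.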

How the data were processed

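RNA of 6 RL samples was hybridised to arrays from 200 ng of total RNA each, per the labels' protocols. The authors deposited 1 linear intensity for each probe set on each array. MAS5 is the only tool in the submitters' processing notes; its version, the background correction and the normalization are not given in the sources used here, and scaling between arrays before deposit would hide a shift of all transcripts. Symbols came from the platform annotation, updated through Entrez identifiers with RefSeq (GRCh38.p14); 41091 probe sets named 1 gene, 1801 several and 11721 none. Probe sets with suffixes _s_at and _x_at can share signal between transcripts.

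Non-control probe sets with a mean log2(signal + 16) at or above the 40th percentile (32768) were fitted with limma 3.58.1 in R 4.3.3 (eBayes with trend, group as the only term, two-sided) and adjusted by Benjamini-Hochberg over all of them; 16620 had an unadjusted p under 0.05. Folds refer to log2(signal + 16), so those of dim probe sets are understated; means ± SD are of linear signals. A gene in a list is stood for by its brightest tested probe set. Probe sets of 1 gene were compared with diffSplice. The fit was tested on simulated data, where it called 38.8%, 83.6% and 98.5% of log2 changes of 0.5, 1 and 2, with 8 false calls. Small changes can thus be missed. The members, lists and tests were chosen with earlier results of these data known. Named genes were all members, from each list up to 3 called genes with the largest change whose groups did not overlap, and the 3 genes nearest in profile to the member with the largest change; others are said to be named after their values were seen.

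Sample numbers are shared by the groups. After subtracting group means, same-numbered arrays correlated at 0.245, 0.168 and 0.14 (samples 1, 2 and 3), so the numbers were taken as a possible pairing; but MALC 3 correlated better with suspension 2 (0.175), and no label explains the numbers. The pairing comes from the data only, and the number as a block was an alternative.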

Additional observations from a re-analysis of the deposited data

How the results depend on the processing

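In all, 19 alternatives were run for the members; no demethylase call changed direction. The calls on KDM3A, KDM4C, KDM6B, KDM4B 212492_s_at, 212495_at, 212496_s_at and 235789_at, and KDM5B 201548_s_at and 211202_s_at held in each alternative run. The number of member probe sets higher in MALC, 20, was 15 to 22, and 17 to 22 when single arrays were left out. Of all 32768 probe sets, 6948 were higher in the main fit and 3101 with samples 2 and 3 averaged. When single arrays were left out, 4956 to 7575 were higher. The number of members lower, 1, was 2 with quantile normalization, with 75th percentile centring and with the sample number as a replicate block. It was 3 with array weights and without both arrays numbered 1, 0 with samples 2 and 3 averaged, and 0 to 3 when single arrays were left out. Of all 32768 probe sets, those lower were 6701 in the main fit, 7610 with quantile normalization, 9819 with 75th percentile centring and 7100 with the block. They were 10306 with array weights, 9075 without both arrays numbered 1 and 2027 with samples 2 and 3 averaged. When single arrays were left out they were 4411 to 7460. Of all probe sets, 13649 were called; 5128 with samples 2 and 3 averaged and 9367 to 15035 when single arrays were left out. Probe sets that differed from their partners numbered 4188 overall and 7 among members: 2674 overall with the filter at the 60th percentile, 13 members without a filter, 8429 and 13 with array weights, 7603 and 14 without both arrays numbered 1, 1230 and 3 with samples 2 and 3 averaged, and 2383 to 5502 and 5 to 8 when single arrays were left out. With the sample number as a block (pairing of numbers) 19 member probe sets were higher and 2 lower; the block changed the calls of KDM3B 201643_x_at and KDM4B 216023_at and no other member's. Fits without an array of number 1, and array weights, can rest on the small spread between the nearly alike samples 2 and 3. Where a count moved, the cause was not tested. Dim probe sets under a signal of 53.4 were not shown to be above background.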
